A study of Mus musculus with 82 samples.

Results

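Reads from the strand opposite to a gene, inside its body, were examined in mouse ES cells. Members were the RefSeq protein-coding genes (GRCm38) of chromosomes 1 to 19 with a curated transcript span over 5 kb and no annotated gene on the other strand, and 10013 of 20558 protein-coding genes met this rule. Another 5503 genes were dropped for a gene on the opposite strand, 4505 for a span of 5 kb or less and 537 for lack of a curated transcript. In each member the opposite-strand (antisense) and same-strand (sense) reads were counted from 1 kb after the transcription start site (TSS) to the gene end, a total of 393 Mb. The median member was 21276 bp long.

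All libraries came from V6.5 mouse ES cells, an embryonic stem line from a cross of C57BL/6 and 129/sv mice, grown in serum with LIF and not otherwise treated. RNA polymerases were allowed to run on with propargyl-labelled nucleotides, and the labelled RNA was captured by click chemistry and sequenced. AGTuC (2 libraries of 1 batch) used bulk nuclei lysed with sarkosyl during the run-on. inAGTuC (4 libraries) used intact nuclei at a lower sarkosyl concentration, and scGRO–seq did the same on single cells, each with its own barcode. Of 76 scGRO–seq libraries, 53 belonged to the 10 batches that the study names where it compares batches, used here as replicates, and 2512 cells of 35 libraries passed the filters, with a median of 3424.5 molecules (1177 to 51393). Replicates of the 3 assays held 222963 to 4919704, 622112 to 1461204, and 2231583 to 4755258 reads (scGRO–seq, inAGTuC and AGTuC). Nothing says that batches or libraries came from separate cultures, so p-values measure the spread between these samples, and assay cannot be told apart from batch for AGTuC.

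Sense reads were checked for the identity of the line. The median density of 8 ES cell markers, such as Pou5f1, Sox2 and Nanog, was 4.71, 4.58 and 10.5 RPKM (reads per kb of region for each 1000000 reads of the replicate, the unit of every density here) in scGRO–seq, inAGTuC and AGTuC. The medians of the fibroblast, primitive endoderm, neural and mesoderm markers lay between 0.0843 and 0.391. Among them Sox1 stood at 13.6 in AGTuC, and Col1a2, Col3a1 and T were at 0 there. Of the reads of the used scGRO–seq batches 28.9% occurred in another library too and were left out. The same rule removed 16.8% of inAGTuC reads and 0.329% of AGTuC reads. In addition, 1 scGRO–seq list outside the used batches shared 99.7% of its molecules with inAGTuC replicate 4 of batch Exp261. Which of both labels holds is not settled, and results are also given without that library. The 53 libraries drew on 288 barcodes, none of them present in every library, so barcodes recurred and a cell was a barcode within a library.

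RNA polymerase II initiates in both directions at most mammalian promoters, and the upstream antisense transcript usually ends early. Antisense RNA can also enter a gene body from a convergent gene that is read past its end, from enhancers in introns, or from an internal promoter. Because run-on assays record polymerases rather than stable RNA, they detect such short-lived transcripts. Reads that stack on a few bases need not come from the place where they align, and the sequences of tall stacks are therefore given first.

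In windows of 50 bp, 616 windows of 483 members held at least 50 antisense reads. These windows took 9.36% of all antisense reads of scGRO–seq, 2.44% of inAGTuC and 3.16% of AGTuC. The stacks were of 2 kinds. In 239 windows the median read had 25 bases or more, with 35615, 5780 and 7373 reads in scGRO–seq, inAGTuC and AGTuC. In the other 377 windows it was shorter, and these held 56861, 4068 and 30 reads. Each sequence below is 60 bases of GRCm38 (RefSeq assembly), written 5′ to 3′ along the antisense RNA, and the capitals mark the read seen most often. The first set holds stacks of longer reads, chosen because they share sequence with each other, match ribosomal RNA or overlap a small GENCODE gene.
Jarid2 intron 4 (chr13:44869622-44869681, minus strand): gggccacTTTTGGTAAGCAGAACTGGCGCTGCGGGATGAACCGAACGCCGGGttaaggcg
Tmtc2 intron 11 (chr10:105238452-105238511, plus strand): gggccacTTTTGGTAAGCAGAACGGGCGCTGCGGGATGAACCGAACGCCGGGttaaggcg
Arhgap21 intron 3 (chr2:20900148-20900207, plus strand): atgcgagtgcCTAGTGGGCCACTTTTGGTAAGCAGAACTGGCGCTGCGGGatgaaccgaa
Gnb1l intron 2 (chr16:18533253-18533312, minus strand): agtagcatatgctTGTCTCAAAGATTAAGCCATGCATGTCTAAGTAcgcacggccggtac
Zc3h7a intron 19 (chr16:11144099-11144158, plus strand): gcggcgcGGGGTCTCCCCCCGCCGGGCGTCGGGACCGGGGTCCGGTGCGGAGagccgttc

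The annotation used here holds only part of the 28S ribosomal RNA, so the Jarid2, Tmtc2, Arhgap21 and Zc3h7a reads were not compared with all of it. The 45-base Jarid2 read matched the Tmtc2 locus with 1 mismatch and the Arhgap21 locus with 4. The 33-base Gnb1l read matched the annotated 18S-related gene Rn18s-rs5 with 0 mismatches and occurs at 2 places on the chromosomes searched. The Zc3h7a stack overlaps Gm23935, a GENCODE vM21 gene of type miRNA at chr16:11144125-11144181. The second set shows stacks of short reads.
Sfswap intron 7 (chr5:129536315-129536374, minus strand): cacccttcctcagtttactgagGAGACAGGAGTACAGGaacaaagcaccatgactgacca
Grm7 intron 10 (chr6:111514692-111514751, minus strand): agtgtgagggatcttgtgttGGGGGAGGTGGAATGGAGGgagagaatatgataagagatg
Dyrk1b intron 1 (chr7:28181371-28181430, minus strand): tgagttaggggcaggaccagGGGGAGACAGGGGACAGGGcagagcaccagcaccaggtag
Plac8 intron 1 (chr5:100563973-100564032, plus strand): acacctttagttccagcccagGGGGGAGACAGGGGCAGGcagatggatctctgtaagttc
Pafah1b1 intron 1 (chr11:74700598-74700657, plus strand): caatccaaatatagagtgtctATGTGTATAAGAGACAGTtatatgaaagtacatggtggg

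A single 16-base read made up 97.2% of the Sfswap stack, which held 3800 scGRO–seq reads from 766 cells, 6 inAGTuC reads and no AGTuC read. The scGRO–seq reads of the Sfswap, Grm7 and Pafah1b1 stacks came from 6, 5 and 4 of the 10 batches. The Sfswap stack was 92.0% of that gene's antisense reads in scGRO–seq, and the Dyrk1b and Plac8 stacks were 95.4% and 96.5% of theirs. Short stacks shared letters. The stretch GGTACAGG lay in the most frequent read of 46 of the 377 short windows (12.2%), against 0.0194% of 1183341 stretches of 18 bases drawn from the same regions, and GACAGGGG lay in 24 of them. GGTACAGG had the most windows among the stretches listed from these same windows, so its excess over the drawn stretches is a description. The numbers are counts of letters on the antisense strand, and overlapping stretches such as TACAGGGG (36 windows) are not independent. Per the study's methods, the 5′ end of 1 version of the azide adaptor is a T followed by ACAGG, letters that GGTACAGG and TACAGGGG hold in this order. The read 1 adaptor that was trimmed, taken as its reverse complement, holds GACAGGGG and all but the last base of the capitals of Pafah1b1. These adaptors were set beside the printed letters only, the other stacks were not compared with them, and their part in the short stacks was not tested.

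Antisense reads were found in nearly every member in the intact-nucleus assays. The counts of members below are not corrected for depth or for the density of space without annotated genes. That density was 0.0761 and 0.0826 RPKM (plus and minus strand) in scGRO–seq, 0.0632 and 0.0646 in inAGTuC, and 0.00781 and 0.00794 in AGTuC. In the bulk assays, fewer cells with a transcript and less of it per cell cannot be told apart. At least 1 read fell in 9875 members (98.6%) in scGRO–seq and 9736 (97.2%) in inAGTuC, but in 7192 (71.8%) in AGTuC, with 988336, 403194 and 234368 reads. The 100 members with most reads held 13.2%, 9.63% and 23.6% of them. Between scGRO–seq and inAGTuC, antisense density per member had a Spearman correlation of 0.817 (sense 0.935). Against AGTuC the antisense correlations were 0.480 and 0.513, whereas those of sense were 0.892 and 0.911. These are descriptions across 10013 genes, which are not independent replicates. The median member held 48 antisense reads in scGRO–seq, 22 in inAGTuC and 3 in AGTuC, and such low counts can lower a rank correlation.

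Antisense reads per 100 sense reads, summed over all members, ranged in scGRO–seq from 18.7 in batch Exp156 through a median of 42.5 to 51.7 in Exp260. The 4 inAGTuC libraries were at 43.9, 30.7, 112.8 and 21.4. The AGTuC libraries were at 13.8 and 13.96, below every other replicate. The means were 39.6 ± 10.0 (SD, n = 10), 52.2 ± 41.4 (n = 4) and 13.9 ± 0.13 (n = 2). The difference between AGTuC and scGRO–seq was -25.8 reads per 100 sense reads, with p = 0.0152 by a two-sided exact permutation test and an adjusted p of 0.0455 over 9 assay comparisons. Fewer than 2 against 10 replicates cannot pass after adjustment: without any single replicate the adjusted p was 0.0545 or more. The call was also lost with mapping quality of at least 30. AGTuC against inAGTuC differed by -38.3 (exact permutation p = 0.267, where 2 against 4 cannot go below 0.0667), and scGRO–seq against inAGTuC by -12.6 (exact permutation p = 0.390). With every scGRO–seq batch and all barcodes the batches reached from 18.5 (Exp156) to 103.5 (Exp234), AGTuC against scGRO–seq was -36.7 (adjusted exact permutation p = 0.0949) and scGRO–seq against inAGTuC -1.69. The difference between scGRO–seq and inAGTuC in the 10 batches turned to 7.64 without inAGTuC replicate 3, the library at 112.8, and was -22.8 without replicate 4 (adjusted exact permutation p = 0.198), when AGTuC against inAGTuC was -48.6.

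**Figure D1:**
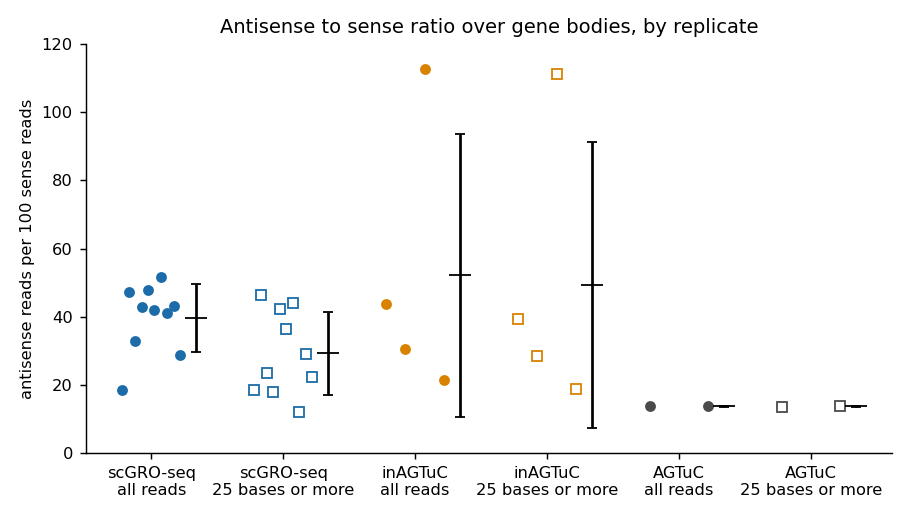
Antisense reads per 100 sense reads over all member regions (y axis, from 0) for each replicate: 10 scGRO–seq batches, 4 inAGTuC libraries and 2 AGTuC libraries, with all reads (filled circles) and with reads of at least 25 bases (open squares). Bars are the mean ± SD. The AGTuC libraries lie at 13.8 and 13.96, and 1 inAGTuC library lies at 112.8.

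The highest inAGTuC value came from a batch in which scGRO–seq was high too. In batch Exp234 the scGRO–seq library stood at 103.5 and the inAGTuC library at 112.8, so both strands were read about equally often. In Exp208 the scGRO–seq libraries were at 28.5 and 35.3 and the inAGTuC libraries at 43.9 and 30.7. In Exp261 the scGRO–seq libraries were at 93.3 and 25.4 and the inAGTuC library at 21.4. Within these 3 batches scGRO–seq differed from inAGTuC by -5.43, -9.32 and 37.96, with a mean of 7.73 (exact permutation within batches, p = 0.889 over 36 regroupings, an alternative added after seeing the data). The scGRO–seq libraries of Exp234 and Exp261 lie outside the used batches, and all barcodes of the scGRO–seq libraries were counted here. The mean is above 0 only through Exp261, where 1 scGRO–seq library stood at 93.3 and the other at 25.4, near the inAGTuC library at 21.4. The inAGTuC library of Exp261 is also the one with the unsettled label. Without that library only Exp208 and Exp234 remain, both below 0. Libraries also differed within a batch: the 10 libraries of Exp236 ranged from 15.1 to 56.8. Over the 2512 cells the median was 37.7 (10th to 90th percentile 19.2 to 56.1), and no cell had more antisense than sense reads. Within batches, the ratio and the number of molecules of a cell had Spearman correlations of 0.03 to 0.73, given as a description because cells of a library share its preparation.

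Read length differed between strands and batches. Reads under 25 bases were 1.84% to 81.9% of antisense reads in the scGRO–seq batches and 0.852% to 41.8% of sense reads, and in each batch the antisense share was the larger. The share did not order the batches by their ratio: Exp160 had 4.59% short antisense reads and a ratio of 47.2, and Exp260b 81.9% and 41.1. The shares were 15.9% to 28.1% (antisense) and 4.66% to 20.96% (sense) in inAGTuC, and about 1% in AGTuC (0.863% and 1.09% of antisense reads). With reads of at least 25 bases, a setting chosen after seeing the data, batch Exp260b went from 41.1 to 12.3 and Exp211 from 42.9 to 18.1, and the scGRO–seq mean was 29.3 ± 12.2 (n = 10). The AGTuC mean was 13.8, against 13.9 with all reads. The difference was then -15.5, with an adjusted exact permutation p of 0.182. Other measures with such reads are given with the internal TSSs and in the closing section. Why read length differed between strands was not tested.

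Antisense density was higher in members with more sense reads, less closely in AGTuC. Across members, antisense and sense density had Spearman correlations of 0.778, 0.835 and 0.431 in scGRO–seq, inAGTuC and AGTuC, a description over genes of the same libraries. AGTuC had a median of 3 antisense reads per member, and low counts can lower its correlation. Members were ordered by AGTuC sense density and cut into deciles. From the lowest to the highest decile, scGRO–seq antisense density went from 0.0785 ± 0.0352 to 0.653 ± 0.234 RPKM (SD, n = 10 batches) while its sense density went from 0.0816 to 2.62. In the lowest decile both strands were thus read nearly equally, at 96.3 antisense per 100 sense reads, and in the highest the ratio was 26.3. inAGTuC ran the same course, from 0.0787 ± 0.0275 to 0.753 ± 0.302 antisense. In AGTuC the antisense density was 0.0299 in the lowest decile and 0.298 in the highest, but not in order between them, with 0.0110 in decile 2, 0.0872 in decile 4 and 0.0689 in decile 5. Since AGTuC sense reads set the order, the AGTuC ratio across deciles is not read.

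**Figure D2:**
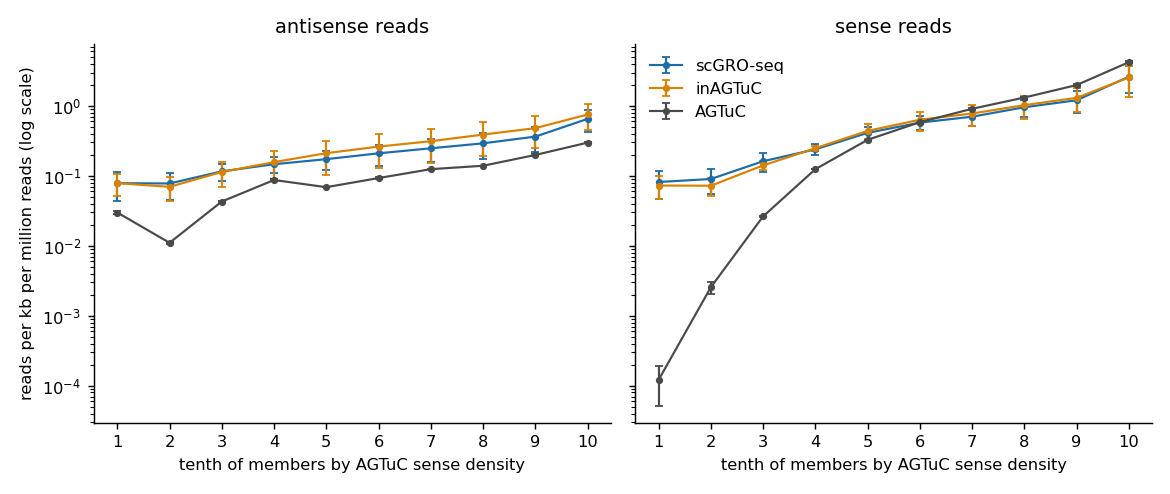
Antisense (left) and sense (right) RPKM (log axis) in deciles of the members ordered by AGTuC sense density. Points are means over replicates and bars the SD (10, 4 and 2 replicates). scGRO–seq antisense goes from 0.0785 to 0.653, and AGTuC antisense lies below both other assays in each decile.

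In space without annotated genes scGRO–seq had 0.0761 ± 0.0280 and 0.0826 ± 0.0290 RPKM on the plus and minus strands, inAGTuC 0.0632 and 0.0646, and AGTuC 0.00781 and 0.00794. The lowest decile of members thus lay near this level in the intact-nucleus assays. After this density was subtracted from both strands (a setting chosen after seeing the data), AGTuC against scGRO–seq differed by -14.01, adjusted exact permutation p = 0.164.

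Distance from the TSS was followed in 2053 members longer than 51 kb. In scGRO–seq, antisense density was 0.222 at 1 to 2 kb and changed little after it, with 0.194 ± 0.0638 RPKM at 1 to 5 kb and 0.181 ± 0.0545 at 20 to 50 kb. The log2 ratio was 0.09 ± 0.10 (SD, n = 10), above 0 in 9 of 10 batches (exact sign-flip permutation p = 0.0215, adjusted p = 0.0322). It was at 0.0005 when the near window began at 2 kb (adjusted p = 0.996), so it rested on the kb from 1 to 2 kb. It also rested on short reads: with reads of at least 25 bases it was 0.016. Leaving out any 1 of 7 batches (Exp156, Exp160, Exp208, Exp211, Exp236, Exp246 and Exp260) ended the call, with values of 0.067 to 0.089 and an adjusted exact permutation p of 0.0527 to 0.0645. Sense reads declined more steeply, and antisense minus sense was -0.21 ± 0.13 (adjusted exact permutation p = 0.00781), lower in 9 of 10 batches. Among members with no opposite-strand gene within 20 kb downstream this difference was -0.07 (adjusted p = 0.515).

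In AGTuC the antisense density went from 0.157 at 1 to 2 kb to 0.0257 at 4 to 5 kb and 0.0278 at 20 to 50 kb. The log2 ratio of near over far was 1.27 and 1.31 in the AGTuC libraries and 0.11 to 0.25 in the 4 inAGTuC libraries, with no overlap. Within Exp208 it was 0.57 and -0.15 in the scGRO–seq libraries and 0.16 and 0.25 in the inAGTuC libraries. It was 0.32 (scGRO–seq) and 0.18 (inAGTuC) in Exp234, and -0.71 and 0.07 (scGRO–seq) and 0.11 (inAGTuC) in Exp261. AGTuC exceeded scGRO–seq by 1.2 (exact permutation p = 0.0152, adjusted p = 0.0455) and inAGTuC by 1.12 (exact permutation p = 0.0667, the smallest possible). The first call was lost without any single replicate (1.18 to 1.23, adjusted exact permutation p of 0.0545 or more) and with mapping quality of at least 30 (1.13, adjusted p = 0.0682). An adjusted p also depends on the other comparisons adjusted with it, so the lost call is no measure of the difference. Far from the TSS the sense densities of the 3 assays were alike (0.498, 0.528 and 0.500 at 20 to 50 kb), and the antisense densities were 0.181, 0.216 and 0.0278.

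**Figure D3:**
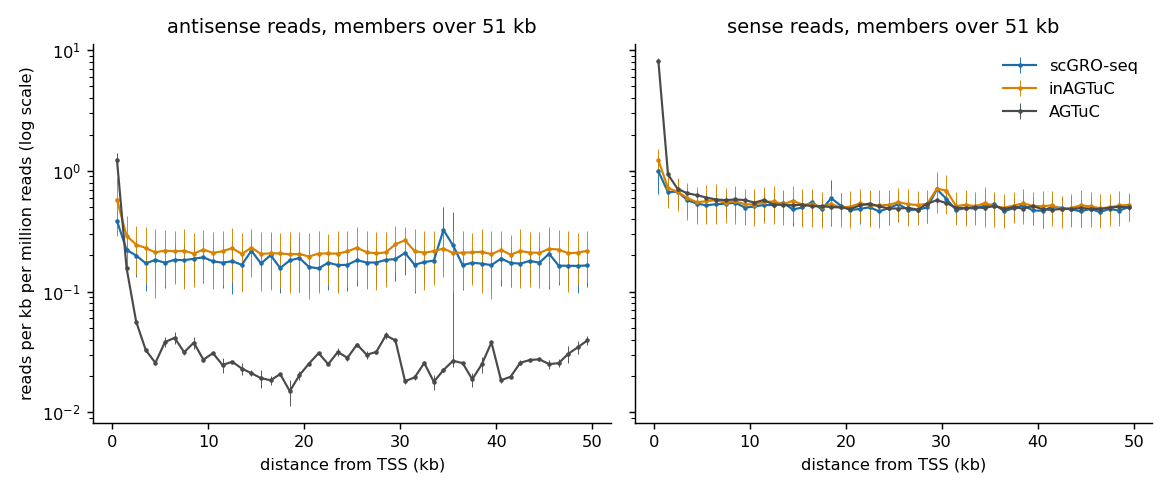
Antisense (left) and sense (right) RPKM (log axis) in 1-kb bins from the TSS over members longer than 51 kb, the first kb included for reference. Lines are means and bars the SD over replicates. AGTuC antisense goes from 0.157 at 1 to 2 kb to 0.0257 at 4 to 5 kb, while scGRO–seq stays near 0.18. The raised scGRO–seq bins at 34 to 35 kb (0.324) and 35 to 36 kb (0.242) are at the distances of the Gnb1l and Sfswap stacks.

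First introns made up 24.1% of the region length. They held 22.1% ± 1.39 of antisense reads in scGRO–seq, 22.1% ± 0.58 in inAGTuC and 15.6% ± 0.76 in AGTuC, with sense shares of 21.5%, 21.5% and 22.9%. AGTuC against scGRO–seq differed by -6.52 points (exact permutation p = 0.0152, adjusted p = 0.0455), a call lost without any single replicate (-7.05 to -5.98, adjusted exact permutation p of 0.0545 or more) and with mapping quality of at least 30 (-8.52, adjusted p = 0.0682). With that mapping quality the difference itself was larger, and the adjusted p also depends on the other comparisons. The direction of the share difference depended on neighbours: among members with no opposite-strand gene within 20 kb downstream, the AGTuC share was 6.03 points higher (adjusted exact permutation p = 0.0455). At the same distance from the TSS (5 to 20 kb), first and later introns differed by a log2 ratio of -0.08 ± 0.17 in scGRO–seq (adjusted exact permutation p = 0.148), with batch Exp156 at -0.51. It passed the test under 4 alternatives, between -0.096 and -0.14, and without batch Exp264a (-0.096, adjusted exact permutation p = 0.0293).

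Antisense density was higher in exons than in introns. scGRO–seq had 0.371 RPKM in exons and 0.177 in introns, a log2 ratio of 1.03 ± 0.40, above 0 in 10 of 10 batches (adjusted exact permutation p = 0.00586). Sense reads were also denser in exons (1.19 against 0.457). The ratio was 1.18 ± 0.17 in inAGTuC and 2.69 ± 0.04 in AGTuC. Base composition moved with these densities: from the quintile of bins with least GC to that with most, antisense density went from 0.0921 to 0.308 in scGRO–seq and sense density from 0.318 to 0.682. The part of base composition in the exon values was not tested. The ratio pools all members, so it is not a ratio within genes. Last exons lie at gene ends, where antisense density differed with the next gene. In AGTuC, the last 2 kb of members with a convergent gene end within 5 kb held a mean of 34048 antisense reads per library. All exons held 40337.5, and the part of gene ends was not tested.

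Antisense density in the last 2 kb of a gene differed with the next gene. In scGRO–seq, antisense density there was 0.414 ± 0.0979 RPKM where a gene on the other strand ended within 5 kb (2483 members) and 0.203 ± 0.0572 where none lay within 50 kb (3145 members). The log2 ratio was 1.04 ± 0.17, above 0 in 10 of 10 batches (adjusted exact permutation p = 0.00586). It was 1.12 ± 0.18 in inAGTuC and 4.63 ± 0.07 in AGTuC, where the densities were 1.99 and 0.0803. Density was lower at larger gaps to the neighbour. In AGTuC it went from 3.75 for gaps under 500 bp through 2.07 at 1 to 2 kb and 0.324 at 5 to 10 kb to 0.134 at 20 to 50 kb, while in scGRO–seq it went from 0.489 to 0.258 over the same range.

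Density at the end also moved with the level of the convergent neighbour. Members were cut into quintiles by the AGTuC sense density of that neighbour. Since AGTuC reads set the order, the courses of the assays are not compared with each other. AGTuC antisense density in the last 2 kb went from 0.0617 through 0.260, 0.914 and 2.42 to 6.27. scGRO–seq went from 0.261 ± 0.0939 to 0.587 ± 0.198 and inAGTuC from 0.272 to 0.750. Each replicate has a value in every quintile. The SDs carry the level of the replicates and do not show whether each replicate rises. Without members that had an opposite-strand gene within 20 kb downstream, the antisense to sense ratio of AGTuC was 6.11 and 6.57 per 100, and that of the 4 inAGTuC libraries was 43.7, 29.7, 113.5 and 20.8.

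**Figure D4:**
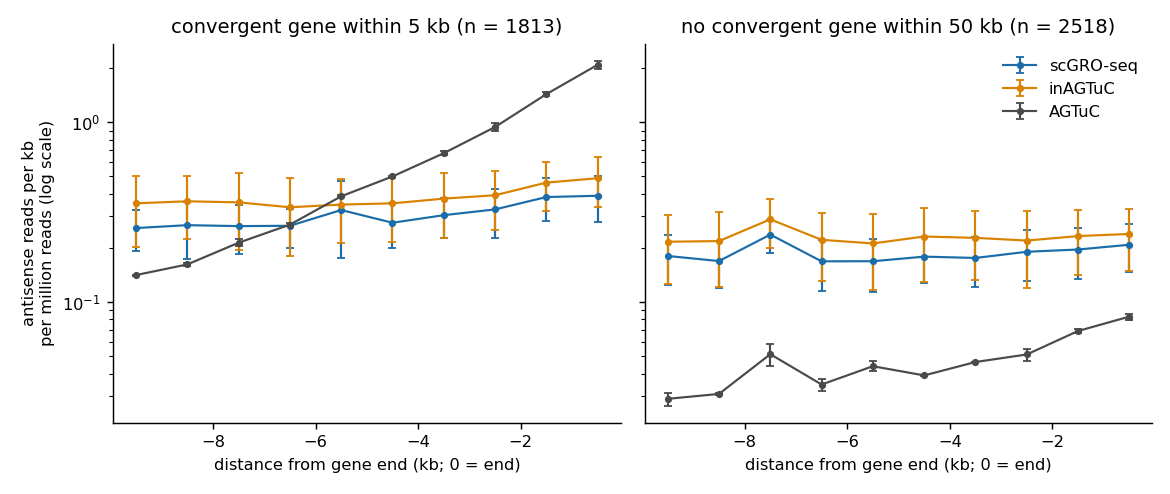
Antisense RPKM (log axis) in 1-kb bins over the last 10 kb of members with a convergent gene end within 5 kb (left) and with none within 50 kb (right). Points are means and bars the SD over replicates. AGTuC rises to 2.09 in the last kb beside a neighbour, and scGRO–seq is at 0.390 there.

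At 827 internal TSSs of 715 members, antisense reads in the kb upstream and in the kb downstream gave a log2 ratio of 0.16 ± 0.65 in scGRO–seq (adjusted exact permutation p = 0.457). The sign turned to -0.27 (adjusted p = 0.00586) when each position was counted once, and to -0.23 with reads of at least 25 bases (adjusted p = 0.0117), so no direction is given for scGRO–seq. In AGTuC the ratio was 0.64 and 0.61, with 0.871 RPKM upstream and 0.565 downstream.

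GENCODE vM21 annotates a gene on the opposite strand in 1540 members that RefSeq leaves free. These genes covered 2.55% of the region length and held 3.02% of antisense reads in scGRO–seq, 3.34% in inAGTuC and 7.84% in AGTuC.

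For individual members, antisense counts were compared by limma voom, which scales each library by its antisense counts (TMM), so a fold change is relative to the other members and not to all reads. Of 3544 members that passed the filter on low counts, AGTuC was higher than inAGTuC in 1119 (31.6%) and lower in 1432 (40.4%), with a median log2 fold change of -1.10. With median-of-ratios scaling the split was 1312 higher and 822 lower, and the median -0.20, so directions near the median are relative to that shift. Calls also rested on both AGTuC libraries: without replicate 1 there were 1126 higher and 574 lower, and without replicate 2 891 and 643, each leaving a lone AGTuC library that is assumed to vary like the others. Without inAGTuC replicate 4 there were 1006 and 1266. With the batch of each library as a random block, an alternative added after seeing the data, there were 1077 and 1207. Members with a convergent gene end within 5 kb were higher in 766 of 1246 (61.5%) and lower in 209 (16.8%), with a median of 2.27. A member can pass the filter through its AGTuC counts alone, so the shares by class are tied to the filter. Members with none within 50 kb were higher in 105 of 954 and lower in 559 (58.6%), with a median of -2.51. Between scGRO–seq and inAGTuC limma called 0 members higher and 0 lower (0% each), and 146 had an unadjusted p under 0.05. It called 0 without inAGTuC replicate 4 and 0 with the batch block too.

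The 3 members with the smallest p among those higher in AGTuC had a convergent gene end within 500 bp. Nlrp12, a member of the NLR family of innate immune regulators at chr7:3221510-3249740, had 10.8 and 9.92 antisense RPKM in AGTuC. The 4 inAGTuC libraries of Nlrp12 were between 0.0253 and 0.269, and the scGRO–seq batches ran from 0 through a median of 0.213 to 0.346. Its log2 fold change was 8.20 ± 0.53 (SE, limma adjusted p = 4.1e-11). The inAGTuC libraries held 4, 6, 6 and 1 Nlrp12 reads against 659 and 1285 in AGTuC. Nlrp12 thus passed the filter on low counts through AGTuC, where it is high, and its p-value is given as a description. The lncRNA D7Ertd143e ends 494 bp away, and 98.5% of the AGTuC reads fell in the last 5 kb.

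Trim41, an E3 ubiquitin ligase gene, faces Rack1, which encodes a ribosome-associated scaffold protein 162 bp away. Trim41 had 20.2 and 16.3 antisense RPKM in AGTuC against 0.483 to 1.22 in inAGTuC and 0.150 to 1.65 in scGRO–seq (log2 fold change 6.67 ± 0.42, limma adjusted p = 4.1e-11). The inAGTuC libraries held 3, 10, 10 and 8 Trim41 reads against 451 and 773 in AGTuC, so the limit given for Nlrp12 holds here too. Kank3 faces the ribosomal protein gene Rps28 and was at 18.8 and 19.4 against 0.564 to 1.60 (6.14 ± 0.39, limma adjusted p = 4.1e-11). In both genes the AGTuC libraries stood above every library of the other assays.

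Mog, which encodes a myelin glycoprotein, had antisense reads beside almost no sense reads in AGTuC. It lies at chr17:37010740-37023398 and ends 10 bp from Zfp57, a zinc finger gene that keeps imprinted methylation. AGTuC held 1386 antisense and 3 sense reads in Mog, inAGTuC 27 and 18, and scGRO–seq 77 and 25. The antisense densities were 17.9 and 16.6 in AGTuC, and 0, 0.732, 0.235 and 0.946 in inAGTuC. The last 5 kb held 98.1% of the AGTuC reads and 94.8% of the scGRO–seq reads. Members chosen for the highest ratio also had a convergent neighbour: Ern2 (1 sense and 239 antisense AGTuC reads) faces the mitotic kinase gene Plk1 at 8 bp, Slc46a3 (1 and 160) faces the proteasome maturation gene Pomp, and Slc18a2 (1 and 170), the vesicular monoamine transporter gene, faces Pdzd8, with 38.8% of the AGTuC reads in the last 5 kb. Mcmdc2 (4 and 814) faces Snhg6, and Sbspon (2 and 285) lies 9809 bp from the telomere protein gene Terf1. These ratios chose the genes and are a description.

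The members with most distinct antisense positions per kb had near neighbours as well. Dipk1b (Snhg7), Tmem91 (Exosc5, a subunit of the RNA exosome), Acy1 (Rpl29) and Star (Ash2l) had AGTuC antisense densities of 38.3, 17.2, 17.4 and 13.9 RPKM. Their scGRO–seq densities were 1.09, 0.687, 0.534 and 1.37. Star, the cholesterol transport gene of steroid hormone synthesis, was at 13.1 and 14.6 in the AGTuC libraries and 0.736 to 2.96 in inAGTuC.

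Other members held antisense units with no convergent neighbour within 50 kb. In Lhfp, which encodes a tetraspan membrane protein (chr3:53041547-53261679), AGTuC held 1275 antisense and 53 sense reads. Of these antisense reads 63.2% lay from 66.5 to 71.5 kb after the TSS, in intron 2. The 65 to 70 kb bin had 21.8 antisense RPKM in AGTuC, 1.74 in inAGTuC and 1.12 in scGRO–seq, against 0.0421, 0.198 and 0.165 in the bin from 75 kb. Tex21 and Wiz, chosen after their values were seen as next in AGTuC reads among the 3145 members without such a neighbour, had 1062 and 1038 AGTuC antisense reads. In Tex21 96.0% lay from 7.5 to 17.5 kb, and in Wiz 89.6% from 3 to 13 kb. GENCODE annotates Gm43803 in the Lhfp window and Gm26858 in that of Wiz, and none on the opposite strand of Tex21. These windows held 47 and 25 scGRO–seq reads in Tex21 and Wiz.

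Zfp202, a zinc finger gene at chr9:40192316-40213604, was read mainly in antisense in all 3 assays. It had 1238 antisense and 351 sense reads in scGRO–seq, 539 and 123 in inAGTuC, and 561 and 60 in AGTuC. Antisense density was 2.84 to 8.18 in the scGRO–seq batches (median 5.07), 1.98, 5.71, 2.46 and 11.8 in inAGTuC, and 3.82 and 4.02 in AGTuC. The groups overlapped. The reads covered the whole body, at 1119 positions in scGRO–seq with at most 0.485% on any of them, and in the first kb, outside the region counted, AGTuC reached 64.9. The nearest opposite-strand gene downstream, Gramd1b, lies 79628 bp away, and neither annotation has a gene on the opposite strand of the region.

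**Figure D5:**
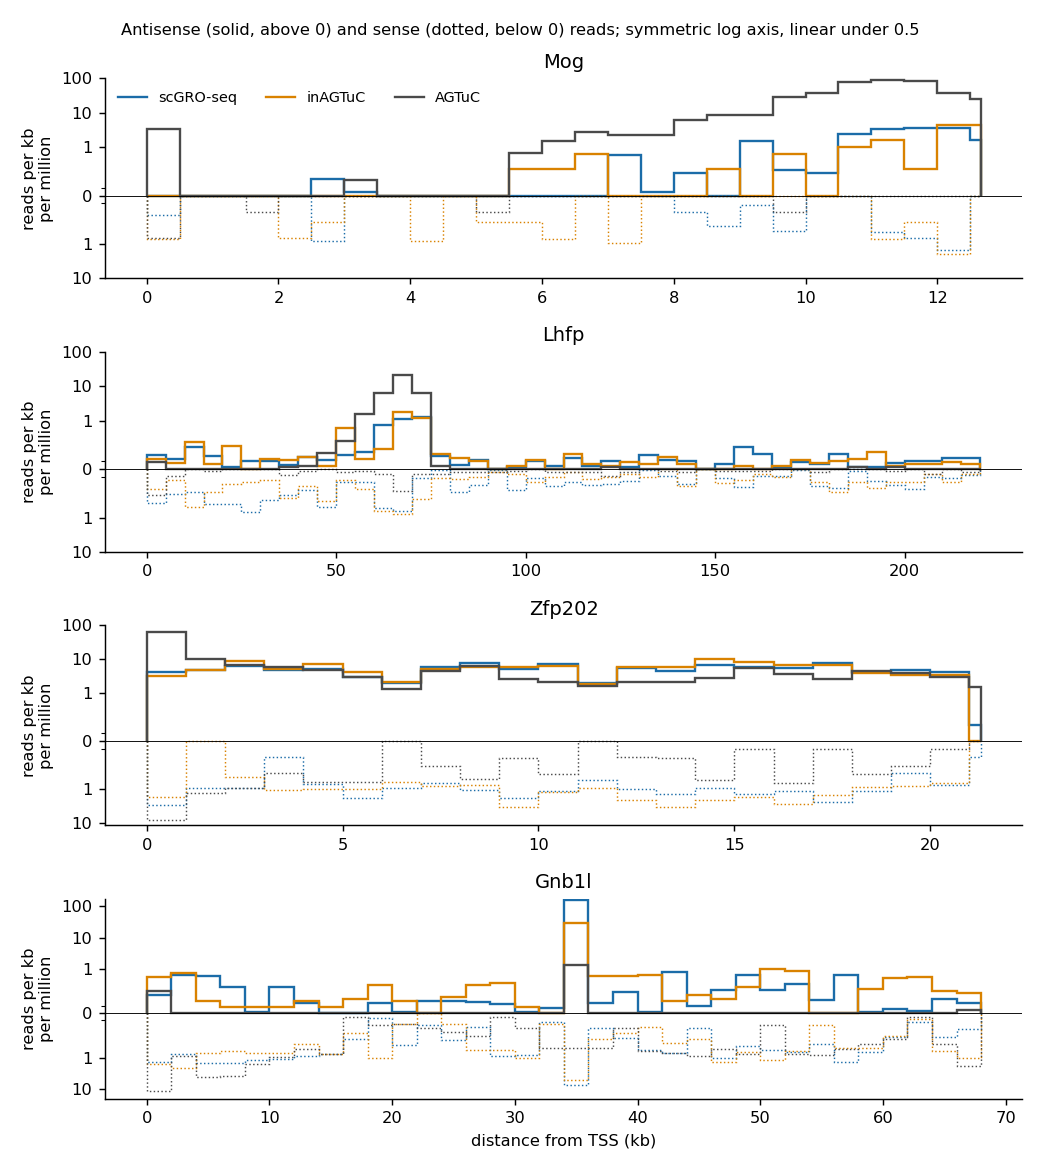
Antisense (solid, above 0) and sense (dotted, below 0) RPKM along Mog, Lhfp, Zfp202 and Gnb1l by distance from the TSS (kb), as means over replicates on a symmetric log axis that is linear under 0.5. Mog rises toward its end in AGTuC, Lhfp has an internal block near 65 to 70 kb, Zfp202 is read in antisense throughout, and Gnb1l has a stack near 34.5 kb.

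Among members with the highest share of antisense reads averaged over the 3 assays, Jarid2 and Gnb1l had large shares of them in a few stacks in scGRO–seq. Jarid2, a cofactor of the Polycomb repressive complex PRC2, had 16956 antisense reads in scGRO–seq, 1292 in inAGTuC and 389 in AGTuC. Its antisense density ran from 1.61 in Exp160 through a median of 5.78 to 37.9 in Exp264a, against 1.14 to 2.17 in inAGTuC and 0.210 and 0.332 in AGTuC. The intron 4 window shown above alone was 45.2% of its scGRO–seq reads, from 1055 cells, and 155 of its 1292 inAGTuC reads, and a repeat in intron 2 (100% soft-masked) was another 25.2%. In Gnb1l, which encodes a WD-repeat protein, 95.0% of 3506 scGRO–seq reads lay in 5 kb around the 18S-like stack. Neither gene passed the test between assays: the log2 fold change of AGTuC against inAGTuC was -0.38 ± 1.22 for Jarid2 (limma adjusted p = 0.776), and -2.58 ± 1.51 for Gnb1l (adjusted p = 0.126). Zc3h7a had 2122 scGRO–seq antisense reads, 96.5% of them in the 5 kb that hold Gm23935.

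Ptprg, a receptor tyrosine phosphatase gene with a counted region of 687 kb, had its antisense reads spread out. Its 4149 antisense reads in scGRO–seq lay at 3869 positions, with 2.05% in the densest 5 kb, beside 11115 sense reads. AGTuC held 62 antisense reads against 1781 sense reads. The density was 0.0104 and 0.0141 in AGTuC, 0.175 to 0.486 in inAGTuC and 0.106 to 0.902 in scGRO–seq, and the log2 fold change was -2.60 ± 0.67 (limma adjusted p = 0.00162). The 3 members with the smallest p among those lower in AGTuC had no convergent gene end within 50 kb. Hdac4, a histone deacetylase gene, had 0.00537 and 0.00504 in AGTuC against 0.259 to 0.866 in inAGTuC (-4.34 ± 0.62, limma adjusted p = 3.04e-06), a call that was lost with spans of all annotated transcripts (-0.38, limma adjusted p = 0.292). Pcbp3, which encodes an RNA-binding protein, had 2 AGTuC reads and Rttn, a centriole gene, had 0, which allows up to 3 counts.

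Of 14 genes of DNA methylation and chromatin that are members, all passed the filter, 9 were lower in AGTuC (Dnmt3b, Uhrf1, Hells, Suz12, Eed, Mtf2, Smarca4, Smarcc1 and Chd7) and 1 was higher (Arid1a), beside a background of 40.4% lower and 31.6% higher. The median log2 fold change of the list was -2.75, against -1.10 over all members tested. Hells, a chromatin remodelling gene needed for DNA methylation, had 270 antisense reads in scGRO–seq, 89 in inAGTuC and 2 in AGTuC beside 726 sense reads (-3.90 ± 0.89, limma adjusted p = 5.99e-04).

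Of 11 members in LIF, FGF and WNT signalling, 10 were tested, 4 were lower, Lifr, Il6st and Ctnnb1 among them, and 2 higher (Etv4 and Tcf7), a share near the background of 40.4% lower and 31.6% higher. Lifr and Il6st, the receptor subunits of LIF, had 1 and 0 antisense reads in AGTuC beside 909 and 509 sense reads. In scGRO–seq the counts for Lifr were 344 antisense and 904 sense. The log2 fold change of Lifr was -5.05 ± 0.73 (limma adjusted p = 3.53e-06), and that of Tcf7 was 2.89 ± 0.42 (4.59e-06 by limma, adjusted). Of 10 members among pluripotency factors, 6 were tested, Nr5a2 and Mycn were higher and Tcf3 lower, with a median of -0.18, where 31.6% of all members tested were higher and 40.4% lower. Tcf3 here is the gene of the E proteins and not Tcf7l1, the pluripotency factor also called TCF3, which is no member. The higher calls are relative to the antisense scaling. Per read of the replicate, antisense density of Mycn was 1.22 in both assays, and that of Nr5a2 and Arid1a was lower in AGTuC than in inAGTuC (0.355 against 0.534 and 0.420 against 0.763). Of 3 long neuronal members, all were lower, and the scGRO–seq antisense densities of Dcc and Pcdh9 were 0.0470 and 0.0563. Both lie below the scGRO–seq densities of gene-free space (0.0761 and 0.0826). In Pcdh9, 1 stack with a most frequent read of 18 bases held 218 of the 349 inAGTuC antisense reads. That stack came from 2 inAGTuC libraries and held 0 AGTuC reads, and its part in the Pcdh9 call was not tested. Of the markers of other cell types 2 were tested, and 1 of them, Pdgfrb, was higher, beside the background of 31.6%. Pdgfrb and Etv4 had 66 and 87 antisense reads in the 2 AGTuC libraries, against 37 and 38 in the 4 inAGTuC libraries. Since members can pass the filter on low counts through AGTuC alone, both higher calls are given as a description.

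No member was called between scGRO–seq and inAGTuC. The smallest p among those higher belonged to Ism1 (log2 fold change 2.35 ± 0.56), Jarid2 (2.56 ± 0.75) and Dpp4 (1.3 ± 0.39), and among those lower to Edar (-1.89 ± 0.53), Gabrp (-1.87 ± 0.55) and Ube2b (-1.41 ± 0.43), each with a limma adjusted p of 0.978. In Ism1, a single position held 58.1% of the scGRO–seq antisense reads. In Edar, a window whose most frequent read has 16 bases held 74 of the 147 inAGTuC antisense reads and 6 of the 81 in scGRO–seq.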

How the data were processed

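Per the labels and the study's methods, the authors trimmed reads with cutadapt, demultiplexed them, aligned them with Bowtie2 to ribosomal sequences and then to mm10, and removed duplicates with UMI-tools. The lists deposited by the authors hold 1 read per line with a score, the mapping quality. Strand was turned to that of the RNA and the RNA 3′ end taken as position. Reads found in more than 1 library were left out. Kept scGRO–seq cells had at least 1000 molecules and 750 features, in libraries of at least 24 such cells. scGRO–seq replicates were batches, the others libraries. Measures over all members were tested by exact permutation with Benjamini-Hochberg adjustment, over 9 assay comparisons and 6 position measures. Counts per member were tested with limma 3.58.1 voom (R 4.3.3) in place of the count model first planned. A filter required 10 counts at the median depth. On simulated counts for AGTuC against inAGTuC (2933 genes tested), 15.8% of changes of 1 log2 unit and 72.4% of 2 units were recovered, and 0.253% of unchanged genes were called. The simulation changed 76 and 87 genes. In the data 31.6% of members were called higher and 40.4% lower, so the simulated rates need not hold there. Antisense reads counted in 2 members were 0.222%. Depth limits precision as counts, and floors cover counting error only. Members, lists and tests were chosen with earlier results of these data known. Named genes were the 12 with the highest share of an assay's antisense reads, averaged over the 3 assays, the 6 with most positions per kb and the 6 with the highest ratio by means of the same kind, the 3 with the smallest p per contrast and direction, and listed genes, some of which are not reported here. Python 3 was used for the rest.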

Additional observations from a re-analysis of the deposited data

Results flagged for a closer look

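Batch Exp156 lay far from the other scGRO–seq batches in 2 measures, by the gap to its nearest neighbour relative to the range of the 10 batches. Its log2 ratio of first over later introns was -0.51, where the others lay above, and its log2 ratio at gene ends with and without a convergent neighbour was 1.46. About 1 in 20 groups is expected to stand apart in this way by chance. Exp156 also had the lowest antisense to sense ratio (18.7 per 100), the lowest gene-free density (0.0227 and 0.0240 RPKM) and, with Exp160, a median read of 58 bases, and the part of these in both values was not tested.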

How the results depend on the processing

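Under the alternatives, 258 values kept direction and side of the threshold, 58 lost significance, 5 gained it, 21 turned direction and 4 counts moved, and no cause was tested. Part of this tally was fixed in advance. The exact permutation tests of AGTuC against inAGTuC cannot pass. For AGTuC against scGRO–seq, all 12 settings that leave out a replicate lost the call in each measure, since fewer replicates cannot pass. An adjusted p also depends on the comparisons adjusted with it. The tally is therefore no measure of robustness. With all deposited reads the first-intron share of scGRO–seq against inAGTuC (main -0.032 points) was 0.018 and the ratio of first to other introns passed (-0.10). With mapping quality of at least 30, AGTuC against scGRO–seq was -23.0 for antisense per 100 sense, -8.52 for the share and 1.13 for near over far, none of them past the threshold, near over far in scGRO–seq was 0.082, the share of scGRO–seq against inAGTuC 0.62, and 1556 members were called. With each position once these were 0.30 for that share, -0.14 for first over other introns (passed) and -0.27 for internal TSSs, and with spans of all transcripts 0.54 and -0.40 for share and internal TSSs. With every scGRO–seq batch and all barcodes, the ratio was -36.7 for AGTuC against scGRO–seq, the share 0.24, near over far 0.046 and first over other introns -0.12 (passed). From 2 kb, near over far was 0.00047. Without opposite-strand genes within 20 kb downstream, the AGTuC share was 6.02 against inAGTuC and 6.03 against scGRO–seq, near over far 0.13, antisense minus sense -0.074, first over other introns -0.11 (passed) and internal TSSs -0.11. Without the filter on low counts 3946 members were called. Settings chosen after seeing the data gave -14.01 for the ratio (gene-free density subtracted), 0.94 for the share and 0.018 for near over far (no GENCODE gene opposite), and, with reads of at least 25 bases, -15.5, -5.54 and 1.28 for AGTuC against scGRO–seq, 0.016 for near over far and -0.23 for internal TSSs.

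Leaving out each replicate gave -22.8 to 7.64 for the ratio of scGRO–seq against inAGTuC, -28.1 to -24.4 for AGTuC against scGRO–seq, -0.20 to 0.28 and -7.05 to -5.98 for the first-intron share in the same order, 1.18 to 1.23 for near over far of AGTuC against scGRO–seq, 0.067 to 0.11 for near over far in scGRO–seq, -0.10 to -0.028 for first over other introns and 1534 to 2500 called members. With batch as a random block, added after seeing the data (13 batches, 2 of them with more than 1 replicate), 2284 members were called in AGTuC against inAGTuC, 2283 of them shared with the main calls. The count model first planned was not run. Within the 3 batches that hold libraries of both assays, also added after seeing the data, scGRO–seq against inAGTuC was 7.73 for the ratio and 0.39 for the first-intron share, neither past the threshold. The ratio difference was -5.43 in Exp208 and -9.32 in Exp234. It was above 0 only in Exp261, through the scGRO–seq library at 93.3, and the inAGTuC library of that batch has the unsettled label. By replicate number, no paired analysis was possible because the numbers follow the order of deposit and pair no samples. Among the replicates used, only batch Exp208 holds both scGRO–seq and inAGTuC, with 2 of the 4 inAGTuC libraries. AGTuC has 2 libraries, so an exact permutation test against the 4 of inAGTuC cannot pass.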
